A study of Arabidopsis thaliana with 4 samples.

Results

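Aquaporins are channel proteins that let water, and in some cases small uncharged solutes, pass membranes. In plants they fall into plasma membrane intrinsic proteins (PIP), tonoplast intrinsic proteins (TIP) of the vacuole, NOD26-like intrinsic proteins (NIP), several of which carry metalloids such as boric acid, and small basic intrinsic proteins (SIP) of the endoplasmic reticulum. The amount and the gating of PIP and TIP channels are known to set how readily water moves through roots and leaves, and many of their transcripts are known to respond to drought. The family studied here was chosen by name, as the 35 Arabidopsis thaliana loci of the known family: 13 PIP, 10 TIP, 9 NIP and 3 SIP genes. All 35 were found among the 25356 genes that the arrays represent, through 80 probes. Genes are written with a hyphen (PIP2-4), the protein database form of the more usual semicolon.

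Total RNA was measured on 4 one-colour Agilent arrays, 2 for the wild type (WT) and 2 for the mutant ced2. The WT is a transgenic line with luciferase under the NCED3 promoter (NCED3pro:LUC) in the gl1-Col0 background, and the labels give the same ecotype for ced2, without naming the mutated gene. Seedlings of both genotypes were 14 d old and had been kept for 6 h in 40% polyethylene glycol (PEG), which draws water out of tissue, and each RNA came from 20 pooled whole seedlings. No untreated plants are among the 4 arrays, so each difference below is one between genotypes under PEG and not a response to PEG. Levels are log2 processed signals minus the 75th percentile of the array, so that 0 is the signal of a probe at that percentile.

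The deposited labels contradict each other. In the authors' value table, each of the 4 columns followed 1 scanner file labelled with the opposite genotype (r = 0.999999 over 43533 probes, with the scanner values centred on each probe's median), while its correlation with its own sample's scanner file lay between -0.573 and -0.369. Directions here follow the scanner files, called WT files and ced2 files, and each would turn under the labels of the value table. NCED3, the gene for the committed step of abscisic acid synthesis, was at 0.68 and 0.67 in the WT files and at -0.65 and -0.67 in the ced2 files. VSR1, a vacuolar sorting receptor known to be needed for abscisic acid synthesis under osmotic stress, was at 2.80 and 2.87 against -0.85 and -0.82. Markers fixed for the 2 main organs were measured throughout, with 10 of 10 root markers and 8 of 8 green tissue markers well above background on all 4 arrays. Replicate arrays differed little over the 17 probes that had repeat spots and were well above background on all 4 arrays. Their median log2 SD of probe means was 0.0236 between WT arrays and 0.0166 between ced2 arrays. Single repeat spots within an array had a median SD of 0.0630 to 0.0846. Averaging over spots lowers the SD of probe means, so these SDs cannot be compared. Among the tested aquaporins the SD ranged from 0.0014 (SIP1-1) to 0.29 (TIP5-1) between WT arrays. Between ced2 arrays it ranged from 0.00076 (TIP4-1) to 0.46 (TIP5-1). The p-values rest on the spread between replicate arrays over all genes tested, which may be technical although the labels call the replicates biological.

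Most aquaporin genes that passed the test were higher in the ced2 files. Of 35 genes, 32 had a probe well above background in both WT files or both ced2 files and were tested, with limma over 20835 genes and a threshold of 0.05 for the Benjamini-Hochberg adjusted p. Of these 32, 15 were higher, 4 were lower and 13 did not pass. Over all genes tested, 77.9% passed, with 42.4% higher and 35.6% lower, against 46.9% higher and 12.5% lower among the aquaporins. These shares depend on the scaling. With quantile normalization 22 aquaporins (68.8%) were higher and 4 (12.5%) lower, against 39.4% and 38% of all genes. With normexp background correction 14 aquaporins (43.8%) were higher and 10 (31.2%) lower, against 27.3% and 47.7%. After normexp, probes not well above background had medians of -4.50 and -4.14 on the WT arrays and of -5.86 and -6.15 on the ced2 arrays. The part of this shift in the dim aquaporins was not tested. The 2 arrays of one group lay wholly above or below those of the other for 29 of the 32 aquaporins and for 90.2% of all genes tested. The median difference, ced2 files minus WT files, was 0.20 on the log2 scale over the 32 aquaporins and 0.05 over all genes. At a minimum of 2-fold, 5 aquaporins (15.6%) were higher, against 8.01% of all genes, and 1 was lower, against 3.32%. The 5 were PIP2-4, TIP4-1, NIP1-1, NIP2-1 and NIP6-1, and the 1 that was lower was TIP3-2.

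By subfamily, 7 of 13 PIP genes (53.8%) were higher, 1 (7.69%) was lower and 5 did not pass. Of 9 tested TIP genes, 3 (33.3%) were higher, 2 (22.2%) lower and 4 not past. Of 7 tested NIP genes, 4 (57.1%) were higher and 3 did not pass. The 3 SIP genes gave 1 higher (33.3%), 1 lower (33.3%) and 1 not past. Over all genes, 42.4% were higher and 35.6% lower. The median difference was 0.12 for PIP, 0.14 for TIP and 0.69 for NIP. These medians describe the tested members and no test compared the subfamilies. The NIP median is sensitive to how background is removed, and was -0.17 with normexp correction.

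**Figure D1:**
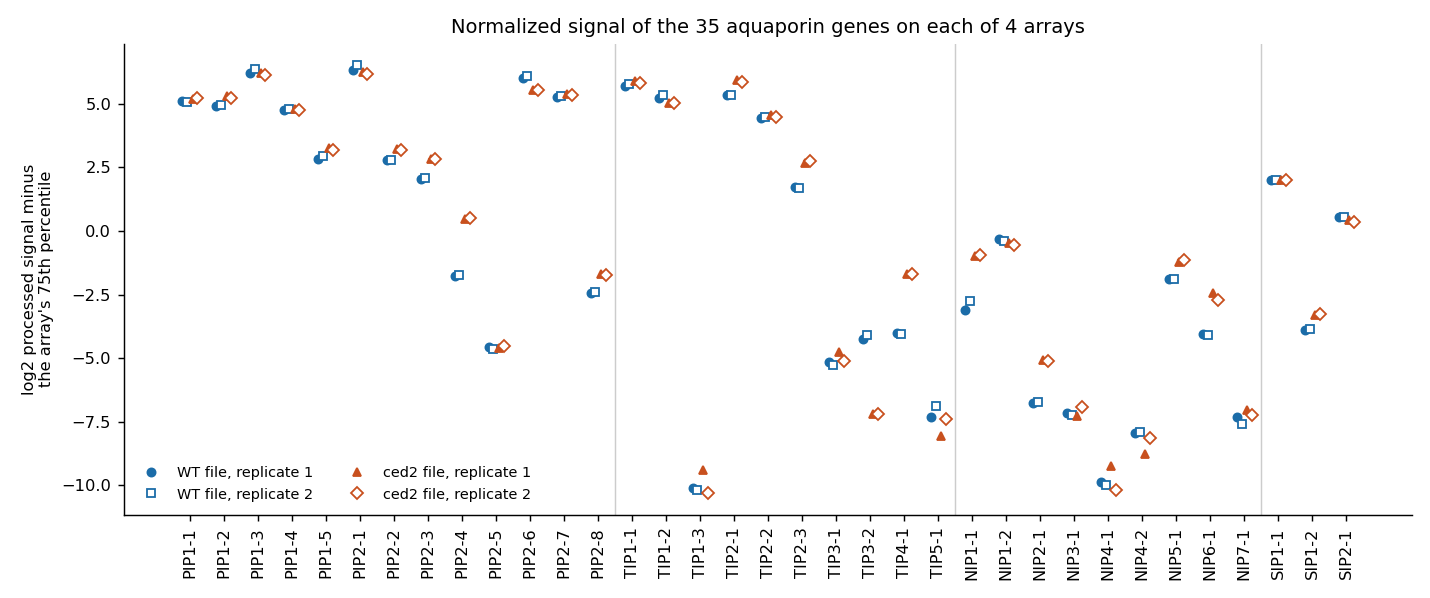
Normalized log2 signal (vertical axis, relative to the 75th percentile of each array) of the probe that represents each of the 35 genes, on 2 WT arrays (blue) and 2 ced2 arrays (orange). Replicates lie close together for most genes, and PIP2-4, TIP4-1, NIP1-1 and TIP3-2 show wide gaps between the groups, while levels of different genes cannot be compared because their probes differ.

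Among plasma membrane channels, the widest difference belonged to PIP2-4 (AT5G60660), a water channel known mainly from roots. Its signal was -1.78 and -1.73 in the WT files and 0.46 and 0.52 in the ced2 files. Both ced2 arrays lay far above both WT arrays, by 2.24 on the log2 scale or 4.74-fold (SE 0.0341, n = 2 per group, limma adjusted p = 0.00016). PIP2-3 (AT2G37180), first described as the desiccation-responsive gene RD28, stood at 2.05 and 2.09 against 2.84 and 2.85. Its groups were well apart, by 0.77 or 1.70-fold (SE 0.0262, adjusted p = 0.000265). Its neighbour PIP2-2 (AT2G37170), a close copy in sequence and a water channel of root cells, was higher by 0.41 (adjusted p = 0.000552), and the single probe of each may also bind the other's transcript. PIP2-8 (AT2G16850) stood at -2.45 and -2.38 against -1.71 and -1.73, again with no overlap between groups. Its difference was 0.70, or 1.62-fold (adjusted p = 0.000455).

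PIP2-6 (AT2G39010), known mainly from shoots, was the PIP gene that was lower in the ced2 files. It stood at 6.00 and 6.10 in the WT files and at 5.53 and 5.55 in the ced2 files. The difference was -0.51, a level 1.43-fold higher in the WT files (SE 0.0426, adjusted p = 0.00146), and shrank to -0.18 with quantile normalization (adjusted p = 0.0375). All 5 of its probes were lower, with differences from -0.51 to -0.29.

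The PIP1 proteins are poor water channels alone and are known to reach the plasma membrane together with PIP2 partners. Of these 5 genes, PIP1-2, a channel of leaves and roots, was higher by 0.34 (adjusted p = 0.00184) and by 0.52 with quantile normalization, and PIP1-5 by 0.33 (adjusted p = 0.00798). PIP1-1 was higher by 0.12 (adjusted p = 0.0155), a call lost without WT replicate 2 (adjusted p = 0.0605), ced2 replicate 1 (0.06) or ced2 replicate 2 (0.0967). PIP1-3 and PIP1-4 did not pass, with differences of -0.14 (95% interval -0.34 to 0.06) and 0.01 (-0.07 to 0.10). PIP1-3 passed without WT replicate 1 (-0.22, adjusted p = 0.0482), and PIP1-4 with quantile normalization (0.15, adjusted p = 0.00596).

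The remaining 3 PIP2 genes did not pass either. PIP2-1 (AT3G53420), an abundant water channel whose phosphorylation and trafficking respond to stress, stood at 6.31 and 6.51 in the WT files and at 6.27 and 6.17 in the ced2 files. The ced2 arrays lay just below the WT arrays, with a difference of -0.19 (95% interval -0.45 to 0.06, adjusted p = 0.121), which passed without WT replicate 1 (-0.29, adjusted p = 0.0386). PIP2-7, which binds the stress-induced membrane protein TSPO, differed by 0.08 (-0.04 to 0.20), and PIP2-5 by 0.05 (-0.10 to 0.20), with overlapping groups. PIP2-5 was lower with normexp (-0.62, adjusted p = 0.00191). With quantile normalization PIP2-7 was higher by 0.29 (adjusted p = 0.00113), as it was by 0.22 as the mean of its 5 probes (adjusted p = 0.00231), and the signs of PIP2-1 and PIP1-3 turned, to 0.12 and 0.16 (adjusted p = 0.0377 and 0.0256).

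**Figure D2:**
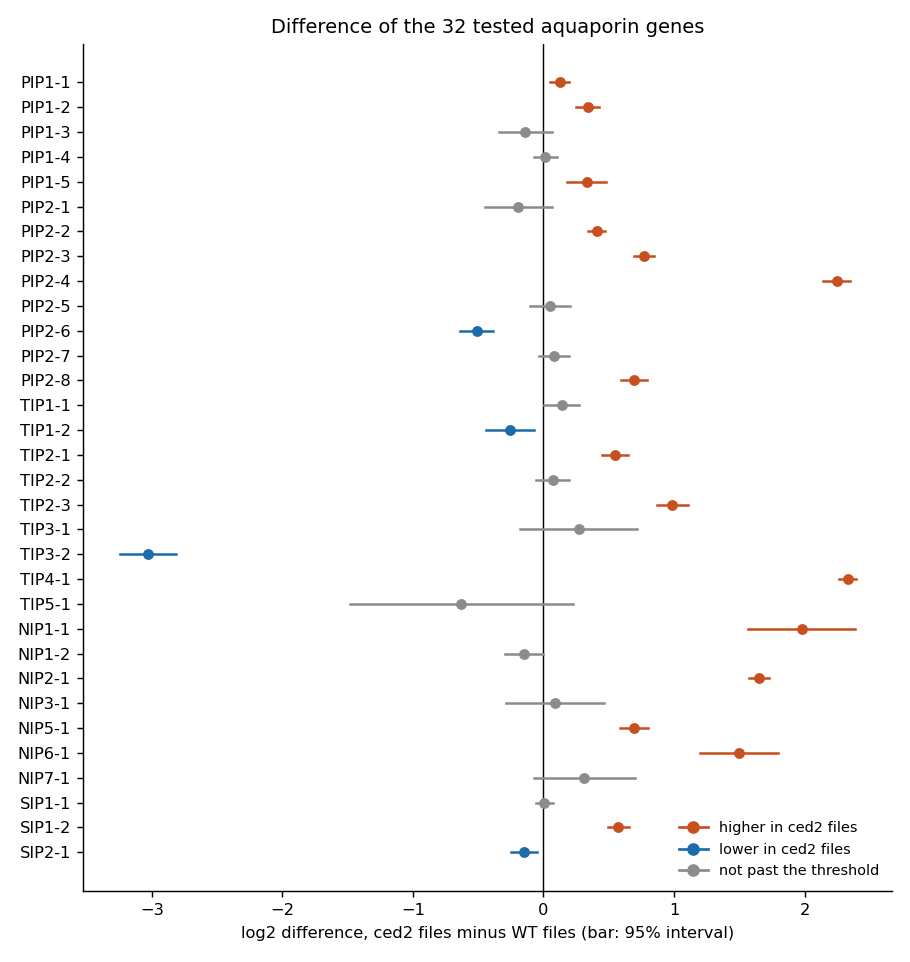
Log2 difference, ced2 files minus WT files (horizontal axis), for each of the 32 tested genes, where points are limma estimates from 2 arrays per group and bars are 95% intervals. TIP4-1 at 2.33 and PIP2-4 at 2.24 lie furthest to the right and TIP3-2 at -3.03 furthest to the left, and grey points did not pass the adjusted p of 0.05.

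Among channels of the vacuole, TIP4-1 (AT2G25810), known mainly from roots, had the highest difference of the 32 genes. Its signal was -4.02 and -4.03 in the WT files against -1.69 and -1.69 in the ced2 files. The difference was 2.33, or 5.02-fold (SE 0.0212, adjusted p = 0.00016), and 1.62 with normexp correction. TIP2-3 (AT5G47450), a root tonoplast channel that also carries ammonia, stood at 1.74 and 1.69 against 2.67 and 2.74. Both of its ced2 arrays were higher, by 0.99 or 1.98-fold (SE 0.0399, adjusted p = 0.000338). TIP2-1 (AT3G16240), the delta-TIP of vegetative vacuoles, stood at 5.37 and 5.35 against 5.95 and 5.87. This gene was higher by 0.55, or 1.46-fold (adjusted p = 0.000773), and all 5 of its probes passed in the same direction. TIP2-2, the third of this subgroup, differed by 0.07 (95% interval -0.06 to 0.20) and did not pass, but was higher by 0.17 with quantile normalization (adjusted p = 0.0163) and by 0.16 as the mean of its probes (adjusted p = 0.00603).

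The gamma-TIPs of the TIP1 subgroup, found in the large central vacuole, went different ways in estimate. TIP1-2 was lower, with a difference of -0.26 (adjusted p = 0.0255). That call ended with quantile normalization (-0.08, adjusted p = 0.107), when dim probes were kept (adjusted p = 0.0537), and without ced2 replicate 1 (0.0862) or 2 (0.0966). TIP1-1, one of the most abundant tonoplast proteins, differed by 0.14 (95% interval 0.00 to 0.27, adjusted p = 0.059). It passed with quantile normalization, at 0.43 (adjusted p = 0.000827), as the mean of its probes, at 0.33 (adjusted p = 0.00284), with normexp (adjusted p = 0.0175) and under the stricter filter on dim probes (adjusted p = 0.0447).

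The seed channels TIP3-1 and TIP3-2, the alpha- and beta-TIPs of protein storage vacuoles, did not move together. TIP3-2 (AT1G17810) stood at -4.25 and -4.07 in the WT files against -7.20 and -7.18 in the ced2 files, where 1 of the 2 arrays had it well above background. The difference was -3.03, a level 8.16-fold higher in the WT files (SE 0.0725, adjusted p = 0.00019), and -2.17 with normexp correction. TIP3-1 (AT1G73190) stood at -5.13 and -5.28 against -4.75 and -5.12, and did not pass (difference 0.27, 95% interval -0.18 to 0.72). Its sign turned with normexp (-0.69, adjusted p = 0.00989), and it passed without ced2 replicate 2 (0.45, adjusted p = 0.0282). Seed markers split likewise. The late embryogenesis gene EM1 was lower, at a difference of -1.68 (adjusted p = 0.000192), a call lost as the mean of its probes (-0.63, adjusted p = 0.24). Its relative EM6 differed by -0.48 (adjusted p = 0.000677). CRA1, a storage globulin, was higher by 2.30 (adjusted p = 0.000486). OLEO2, an oil body protein, was dim on both WT arrays and stood at -5.78 and -6.57 in the ced2 files. Its mean was at least 3.32-fold higher in the ced2 files (adjusted p = 0.00946), a bound that leaves out the spread between arrays. OLEO2 had a 95% interval of 0.92 to 2.69 for its log2 difference. Its direction turned with normexp (-0.83, adjusted p = 0.0413), and the call ended without WT replicate 1 (0.0557) or 2 (0.0519). The bound sets the ced2 mean against the higher of the lowest signal well above background and the gene's own signal on each WT array. Of 7 seed markers, 3 were well above background on all 4 arrays and 2 on none. The summed level of the list was 2.82 and 2.81 in the WT files against 1.58 and 1.53. Most of this sum was EM1 (log2 signal 0.44 and 0.39 against -1.22 and -1.30) and EM6 (0.52 and 0.57 against 0.07 and 0.05). Each of the other markers had a higher signal in the ced2 files, but only 4 of the 7 markers were tested. The part of seed transcripts in the TIP3-2 difference was not tested.

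TIP5-1, known from pollen, stood at -7.30 and -6.89 against -8.04 and -7.40, with ced2 replicate 1 not well above background. The lowest signal well above background on that array was -7.14. The TIP5-1 difference of -0.63 did not pass (95% interval -1.48 to 0.23). With the replicate number as a block, for which no pairing is known, it did (adjusted p = 0.015). Without ced2 replicate 2 it was -0.95, resting on the dim replicate 1 alone in that group. After normexp it was -1.48 (adjusted p = 0.0018). Probes not well above background were also lower in the ced2 files after normexp, as given above, and their part was not tested. TIP1-3, also known from pollen, had no array well above background, at -10.11 and -10.17 against -9.39 and -10.30, and was not tested. With normexp, TIP1-3 differed by -1.70.

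The NIP genes, each measured by 1 probe, held 3 of the 5 aquaporins that were higher by at least 2-fold. These 3 were 42.9% of the tested NIP genes, against 8.01% of all genes. NIP1-1 (AT4G19030), a root channel known for taking up arsenite, stood at -3.11 and -2.76 in the WT files against -0.99 and -0.92 in the ced2 files. The WT arrays were further apart than for most members, yet both lay well below the ced2 arrays, and the difference was 1.98, or 3.94-fold (SE 0.139, adjusted p = 0.000973). NIP6-1 (AT1G80760), a boric acid channel known from shoot nodes, stood at -4.06 and -4.07 against -2.43 and -2.70. Both ced2 arrays were higher, by 1.498 or 2.83-fold (SE 0.102, adjusted p = 0.000918), and by 0.78 with normexp. NIP5-1 (AT4G10380), the boric acid importer of root cells, stood at -1.90 and -1.87 against -1.23 and -1.16. It was higher by 0.69, or 1.62-fold (adjusted p = 0.000546).

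NIP2-1 (AT2G34390), a root channel known for carrying lactic acid under low oxygen, stood at -6.75 and -6.73 against -5.07 and -5.11. It was higher by 1.65, or 3.14-fold (SE 0.0266, adjusted p = 0.00016), but lower with normexp, at -0.45 (adjusted p = 0.031). With normexp and its offset of 50, the probes that were not well above background had a median of -4.50 and -4.14 on the WT arrays and of -5.86 and -6.15 on the ced2 arrays. Their part in the turn of NIP2-1, which was well above background on all 4 arrays, was not tested. NIP1-2 did not pass (-0.15, adjusted p = 0.0573), but its call changed with quantile normalization (-0.17, adjusted p = 0.0475), normexp (-0.17, adjusted p = 0.0464), the stricter filter on dim probes (adjusted p = 0.0426) and the replicate block (adjusted p = 0.0217).

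The other NIP genes were near background. NIP7-1, a boric acid channel of anthers, stood at -7.32 and -7.60 against -7.05 and -7.24, with 1 ced2 array not well above background. It did not pass (0.31, 95% interval -0.08 to 0.70), though it did with the replicate block (adjusted p = 0.0148) and turned sign with normexp (-1.32, adjusted p = 0.0018). NIP3-1 stood at -7.14 and -7.22 against -7.25 and -6.93, also with 1 dim ced2 array, and its groups overlapped. Its difference was 0.09 (95% interval -0.28 to 0.46). It passed without ced2 replicate 1 (0.25, adjusted p = 0.0355), and was lower with normexp, at -1.26 (adjusted p = 0.00172). The neighbouring genes NIP4-1 and NIP4-2, known from pollen, had no array well above background and were not tested. NIP4-1 stood at -9.86 and -9.99 against -9.24 and -10.18, and NIP4-2 at -7.95 and -7.90 against -8.75 and -8.13. With normexp, NIP4-1 and NIP4-2 differed by -1.75 and -1.60. Probes not well above background were lower in the ced2 files with normexp, as given above. Their part in the normexp values of NIP7-1 and NIP3-1 was not tested.

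Of the SIP genes, SIP1-2 (AT5G18290) stood at -3.88 and -3.85 against -3.31 and -3.27. It was higher by 0.57, or 1.49-fold (SE 0.0279, adjusted p = 0.00046), a call lost with normexp (-0.02, adjusted p = 0.779). SIP2-1 was lower, with a difference of -0.15 (adjusted p = 0.021). That call ended without WT replicate 1 (0.0842), WT replicate 2 (0.054) or ced2 replicate 2 (0.0926), and after normexp (0.0537). SIP1-1 differed by 0.01 (95% interval -0.05 to 0.07), the smallest difference of the 32 genes, and was higher by 0.08 with quantile normalization (adjusted p = 0.0364).

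Several probes were available for 14 of the 35 genes, and these show how far a difference depends on the probe. Each probe was also fitted on its own, over 28613 probes, a step added after the data were seen. Of 77 tested aquaporin probes, 41 were higher, 12 lower and 24 not past, where 42.1% of all tested probes were higher and 35% lower. In 12 of the 14 genes all probes had the same sign. The exceptions were PIP1-3 and PIP2-1, each with probes called both ways. For PIP2-1, the 3 probes with a mean signal above 6 differed by -0.19, -0.17 and -0.32, and the 3 dimmer probes were higher by 0.19, 0.29 and 0.20. In 10 of the 14 genes the brightest probe, which represents the gene here, had the lowest signed difference of all its probes. TIP2-1 showed this, at 0.55 for its brightest probe and 0.86 for the probe with the largest difference, as did TIP1-1, at 0.14 and 0.58. TIP2-3 gave 0.99 and 1.28 with its 2 probes. The counts of 12 and of 10 genes were not made over the 6903 genes with more than 1 probe. Whether they are particular to the aquaporins was not tested.

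Over all tested probes, the difference also ran with signal. Its median was 0.24 for the 5956 probes at or below -4 and -0.32 for the 127 probes above 6. Of 5 aquaporin probes in that brightest range, 0 were positive and their median was -0.19. In the range from 2 to 4, 14 of 16 aquaporin probes were positive with a median of 0.35, against -0.07 for all probes. Among the spots kept, none was flagged as saturated on any array. The part of signal strength in the differences of the bright PIP and TIP genes was not tested.

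**Figure D3:**
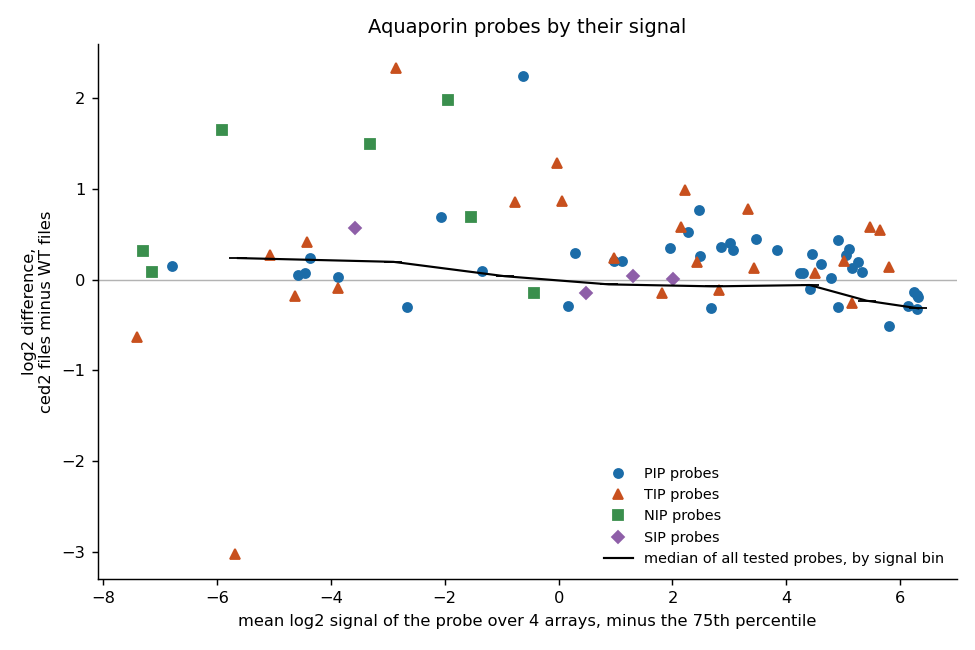
Log2 difference, ced2 files minus WT files (vertical axis), of the 77 tested aquaporin probes against the mean normalized log2 signal of the probe over 4 arrays (horizontal axis), with the black line joining the medians of all tested probes in bins of signal. The line falls from 0.24 to -0.32, most aquaporin probes lie above it, and the 5 brightest aquaporin probes lie below 0.

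Genes that act on aquaporins were also read. Of 13 genes listed for traffic, phosphorylation and turnover of aquaporins, 12 had a probe and were tested, of which 8 were lower, 2 higher and 2 not past, with a median of -0.29, where 35.6% of all genes were lower and 42.4% higher. TSPO, a membrane protein known to bind PIP2-7 and lead it to breakdown, was lower, with a difference of -0.64 (adjusted p = 0.000395). XND1, a xylem transcription factor that lowers root water transport, differed by -0.52 (adjusted p = 0.000528), and the calcium-dependent kinase CPK7 by -0.47 (adjusted p = 0.00112). The syntaxin SYP121, which helps deliver PIP2 channels to the plasma membrane, was higher by 0.29 (adjusted p = 0.00133). RMA1, RMA2 and RMA3, of a family of membrane-bound ubiquitin ligases, differed by -0.28, -0.30 and -0.22 (adjusted p between 0.00192 and 0.00723).

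Organ markers differed in part between the groups. Of 10 root markers, 9 (90%) were higher and 1 did not pass, with a median of 1.06. Of all genes 42.4% were higher, with a median of 0.05. CASP1, which builds the Casparian strip of the endodermis, was higher by 2.63 (adjusted p = 0.00016), and the root hair genes COBL9 and RHD6 by 1.76 and 1.196 (adjusted p = 0.000186 and 0.000189). The summed level of the root markers was 20.1 and 20.7 times the 75th percentile signal in the WT files against 39.6 and 38.5 in the ced2 files. Most of this sum was PYK10, a root glucosidase named after its values were seen, at 19.0 and 19.6 against 36.7 and 35.6, and the other 9 markers summed to 1.101 and 1.106 against 2.924 and 2.919. Of 8 green tissue markers, 4 (50%) were lower and 4 did not pass, where 35.6% of all genes were lower. Their median was -0.39, and their summed level was 880.4 and 1008 against 784.1 and 678.7. These markers lay among the bright probes. The median of all tested probes there was -0.23 for signals from 5 to 6 and -0.32 above 6. The part of signal strength in the marker differences was not tested. PSAD1, PSAF, LHCA1 and LHCB1.3 differed by -0.42, -0.53, -0.39 and -0.43 (adjusted p between 0.00397 and 0.0419). The calls of LHCA1 and LHCB1.3 ended with quantile normalization (0.014 and -0.03, adjusted p = 0.611 and 0.368) and with the replicate block (0.0869 and 0.099). With quantile normalization PSAD1 and PSAF stayed lower but shrank, to -0.08 and -0.14 (adjusted p = 0.0322 and 0.0209). In RNA of whole seedlings, fewer cells of a type and less RNA per cell cannot be told apart, and the part of root or green tissue share in the aquaporin differences was not tested. Genotype and position on the slide cannot be told apart either, since the WT arrays lay at positions 1 and 2 and the ced2 arrays at 3 and 4.

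**Figure D4:**
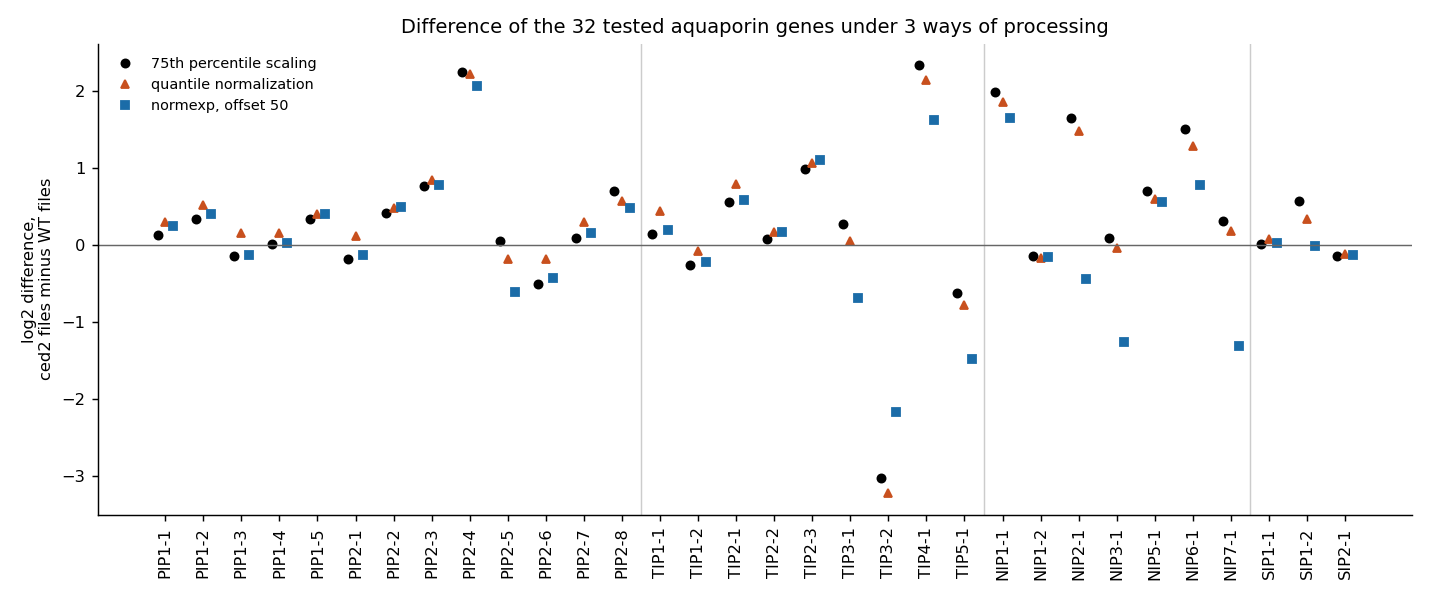
Log2 difference, ced2 files minus WT files (vertical axis), of the 32 tested genes with 75th percentile scaling (black), quantile normalization (orange) and normexp background correction with an offset of 50 (blue). The 3 values lie close together for PIP2-4 (2.24, 2.21 and 2.07) and spread widely for dim genes such as NIP2-1 (1.65, 1.48 and -0.45).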

How the data were processed

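Agilent Feature Extraction 10.7.1.1 is the tool named in the submitters' processing notes. The deposited processed signal, per the file headers, is a background-subtracted and detrended spot intensity, not normalized between arrays. The deposited value table holds log2 values of unstated scale. They matched the log2 processed signal minus the 75th percentile, centred on the median of each probe (medians of its columns 0.08, -0.03, 0.01 and -0.03), under exchanged genotypes.

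Control and outlier spots were left out, which dropped 70 of 43603 probes, and spots of a probe were averaged. Names came from a RefSeq gene table (TAIR10.1) by unversioned accession, which gave 34236 probes a gene and 9297 none. The probe of highest mean signal represented a gene. The comparison used lmFit and eBayes of limma 3.58.1 in R 4.3.3, two-sided, with 2 residual and 1.49 prior degrees of freedom. The fit was tested on simulated data. Every adjusted p is from limma, by the Benjamini-Hochberg method across the whole table.

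All arrays lay on 1 slide, and 2 arrays per group limit the precision. The WT arrays had a 75th percentile of 3342 and 2807 in processed signal, and the ced2 arrays of 3724 and 4465. The members and lists were chosen with earlier results of these data known. Every member is reported, with each array's value where it passed with a log2 difference of at least 0.5 or was dim on an array of a tested group; further values of single arrays were added as examples. Of the other lists, up to 4 genes by smallest p are named, except 1 that is not reported here; the RMA genes were added after their values were seen. Normexp used median intensities. VAMP721 had no probe matched.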

Additional observations from a re-analysis of the deposited data

How the results depend on the processing

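Of the 19 aquaporins that passed, 14 kept their call and direction under each of the 10 alternatives (9 for TIP3-2, which the stricter filter leaves out), and PIP1-1, TIP1-2, NIP2-1, SIP1-2 and SIP2-1 did not. Under the labels of the authors' value table, 4 aquaporins were higher and 15 lower, and the medians were -0.047 for all genes, -0.20 for the aquaporins, -0.12 for PIP, -0.14 for TIP and -0.69 for NIP. With normexp, 5696 of all genes were higher, 10 aquaporins were lower, and the medians were -0.14 for all genes, 0.086 for the aquaporins, 0.25 for PIP and -0.17 for NIP. With normexp the signs of PIP2-5 (-0.62), TIP3-1 (-0.69), NIP2-1 (-0.45), NIP3-1 (-1.26), NIP7-1 (-1.32), SIP1-2 (-0.021) and OLEO2 (-0.83) turned. With quantile normalization the medians were 0.0058 for all genes, 0.29 for the aquaporins, 0.29 for PIP and 0.60 for NIP, and the signs of PIP1-3 (0.16), PIP2-1 (0.12), PIP2-5 (-0.18), NIP3-1 (-0.039) and LHCA1 (0.014) turned. An adjusted p of 0.01 left 2 aquaporins lower. At a 2-fold minimum, 1668 of all genes and 5 aquaporins were higher, and 692 and 1 lower. Without a filter on dim probes the NIP median was 0.31. With well above background required on all 4 arrays, the medians were 0.30 for the aquaporins, 0.27 for TIP and 1.498 for NIP, since fewer dim genes were tested. The mean over probes gave medians of 0.065 for all genes, 0.29 for the aquaporins, 0.22 for PIP and 0.27 for TIP. The median over the probes of PIP2-1, added after the data were seen, was 0.0095. The cause of these moves was otherwise not tested.

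Leaving out 1 array gave 14 to 15 aquaporins higher and 3 to 5 lower, with medians of 0.17 to 0.27 for the aquaporins, 0.11 to 0.14 for PIP, 0.08 to 0.18 for TIP and 0.66 to 0.73 for NIP. The signs of PIP1-4 (range -0.0064 to 0.035, below 0 without WT replicate 1 or ced2 replicate 1), PIP2-5 (-0.0031 to 0.10, below 0 without WT replicate 2) and NIP3-1 (-0.072 to 0.25, below 0 without ced2 replicate 2) turned. With the replicate block 16 aquaporins were higher and 6 lower, and 8574 and 7113 of all genes. The samples share replicate numbers and no known pairing. Deviations of the replicate 1 arrays from their group means correlated across genes at r = 0.0473, which with so few arrays cannot exclude a pairing. Few arrays and dim signals limit what can be seen of TIP5-1, NIP3-1 and NIP7-1.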
